A study of Homo sapiens with 10 samples.

Results

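The 43 genes described here are MYC and genes whose products build ribosomes in the nucleolus or supply them with nucleotides and polyamines. They were taken by name from a list that held MYC, RNA polymerase I genes, nucleolar processing factors and enzymes, and they are 43 of the 57993 gene symbols in the tables. Of these, 42 stood under their own symbol, and UTP4 stood under its older symbol CIRH1A, at chromosome 16, 69131290 to 69231130 (GRCh38). RNA was measured in 10 libraries of HCT116, a human colorectal carcinoma line, and the question the design poses is what KDM5A, a demethylase of histone H3 at lysine 4, does to expression in these cells. There were 4 groups: parental cells, wild type for KDM5A, with empty vector (2 libraries), and KDM5A-/- cells with empty vector (3 libraries), with wild-type KDM5A from a plasmid (3 libraries) or with a mutant KDM5A from a plasmid (2 libraries). Which mutation it carries is not in the labels. In all groups, GFP-positive cells were sorted 24 hours after transfection. The knockout cells were a bought line, nothing in the labels speaks of a second clone, and G418 was in their medium only, so that genotype, clone and G418 cannot be told apart in the comparison with parental cells.

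Ribosome production starts with RNA polymerase I, which transcribes the long ribosomal RNA precursor in the nucleolus. Small nucleolar ribonucleoproteins (snoRNPs) modify the precursor, and separate sets of assembly factors cut and fold it into the small and the large subunit. MYC is the best known activator of these genes: with its partner MAX it binds the E-box CACGTG near their starts, and in colorectal tumours it is commonly driven by Wnt signalling.

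The E-box was therefore looked for in the members' promoters, and the stretches shown are those of 4 members that were lower in parental cells (PES1, MRTO4, BYSL and UTP20), of UTP4, which was higher with mutant KDM5A under median-ratio scaling but not as deposited, and of FBL, a highly expressed member called in neither comparison. RefSeq promoter windows of build GRCh38.p14, 250 bases before to 50 after the annotated start, were matched by symbol for 35 of the 43 members. CACGTG is its own reverse complement, so both strands are read at once. Each line is 30 bases, 5′ to 3′ on the gene's strand, with the E-box in capitals.
PES1 (chr22:30591880-30591909, minus strand): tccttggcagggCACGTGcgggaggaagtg
MRTO4 (chr1:19251807-19251836, plus strand): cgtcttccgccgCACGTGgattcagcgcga
BYSL (chr6:41921515-41921544, plus strand): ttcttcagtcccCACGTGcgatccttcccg
UTP20 (chr12:101280083-101280112, plus strand): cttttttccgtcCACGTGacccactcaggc
UTP4 (chr16:69132621-69132650, plus strand): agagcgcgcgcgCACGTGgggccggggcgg
FBL (chr19:39846356-39846385, minus strand): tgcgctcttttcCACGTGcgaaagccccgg

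An E-box was present in 13 of the 35 member promoters (37.1%), against 7.43% of all 27305 RefSeq promoters of the same length and 10.2% of the promoters of genes tested here. The E-box began 13 bases after the start in PES1, 14 after in MRTO4, 28 after in BYSL and 6 after in FBL, and it began 10 bases before the start in UTP20 and 16 before in UTP4. All 13 began between 16 bases before and 35 bases after the start. Over all promoters, 17.1% of 2255 E-boxes began in that range, which was chosen after the members' positions were seen. Since genes of this kind are known for regulation by MYC, a high share of E-boxes describes the list, and a match is a run of letters and not a measured binding site.

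**Figure D1:**
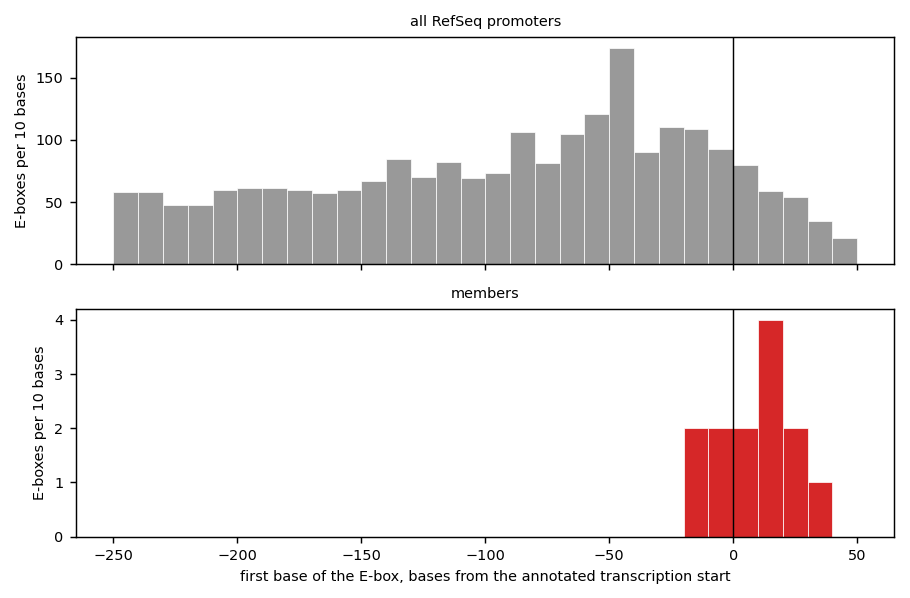
Number of E-boxes (CACGTG) per 10 bases against the distance of their first base from the annotated transcription start, in all RefSeq promoters (upper panel) and in the 35 member promoters (lower panel). The 13 members' E-boxes lie between 16 bases before and 35 bases after the start, while those of all promoters spread over the whole window.

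Values are given as scaled values: the deposited FPKM values, which are per transcript length and library total, turned back to the linear scale and divided by 1 factor per library. All 43 members passed the filter on low values and were among the 17779 genes tested, so none was lost. Their mean over the 10 libraries ran from 10.2 for UTP20 to 1189 for NPM1, with a median of 67.5, against a median of 12.4 over all genes tested. On this scale, which is per length, the order was NPM1 (1189), NCL (614), FBL (419), NOP56 (398), ODC1 (309), NOLC1 (242) and MYC (219.6), followed by NOC2L (208) and NOP58 (173). MYC and NOC2L were not separated by the spread, since MYC ran from 204 to 236 over the libraries and NOC2L from 151 to 232. Together the members made up 0.544% to 0.642% of a library.

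**Figure D2:**
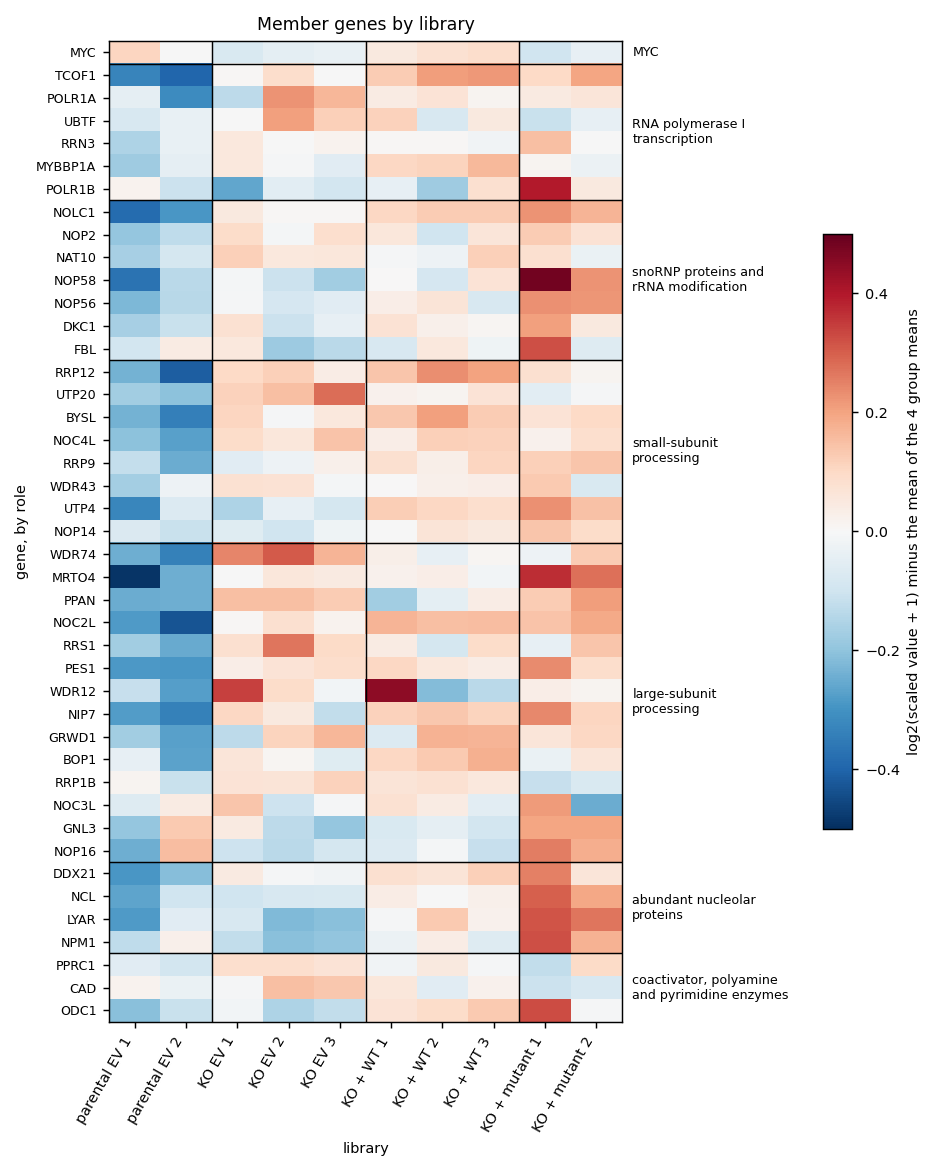
Each member's log2(scaled value + 1) in each of the 10 libraries minus the mean of the 4 group means, with members ordered by role. The 2 parental columns are blue over most small-subunit and large-subunit factors, and the 2 mutant columns are red for NPM1, NCL, LYAR and NOP58 with the median-ratio scaling shown, while NPM1 and NCL turn direction under another scaling.

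The tables hold no read counts, so the depth behind a value is unknown. The labels do not say whether replicate libraries are from different cultures, and p-values therefore speak of the spread among these libraries alone, possibly a technical one. KDM5A itself stood at 12.2 to 17.7 in the 5 libraries without a KDM5A plasmid, parental and knockout alike, at 13452 to 16237 with the wild-type plasmid and at 22816 to 23346 with the mutant plasmid. Its level over the whole gene therefore checks only the plasmid labels. Of 8 colorectal epithelial markers 7 reached 1 in every library, and VIL1 was below 1 in all. Markers of other cells stayed below 1 in all libraries for 4 of 5 leukocyte, 3 of 4 endothelial and 4 of 5 fibroblast genes. The exceptions were CD14 (1.17 to 6.41), PECAM1 (0.037 to 1.15) and COL1A1 (13.5 to 28.7). There were 3 libraries that stood apart, parental library 2 and both with mutant KDM5A: protein-coding genes took 90.4% to 91.0% of their total against 92.7% to 93.1% in the other 7 libraries, and ribosomal protein genes 14.3% to 14.8% against 11.9% to 13.2%.

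Parental cells and knockout cells, both with empty vector, differed in members that assemble both ribosomal subunits, some of which were lower in the parental cells. Outside the members, 3 of 56 further large-subunit factors were lower, near the 4.84% of all genes tested. Of the 43 members 14 were lower and none was higher (16 lower and none higher as deposited and with quantile normalization, against 5.46% and 5.12% of all genes lower), and 14 of 43 is 32.6%, against 4.84% lower among all genes tested and 7.6% among the 9571 genes at least as high as the lowest member. The 14 were WDR74, RRP12, MRTO4, TCOF1, PPAN, NOC2L, UTP20, RRS1, NOLC1, PES1, BYSL, NOC4L, NIP7 and DDX21, and their differences ran from -0.53 to -0.26 on the log2 scale. The median over the 43 members was -0.16, against -0.00 over all genes tested, and 36 members lay below 0, against 50.6% of all genes. In 26 members both parental libraries lay below the 3 empty-vector knockout libraries, against 21.9% of all genes. In bulk RNA, fewer cells that express a gene and less RNA per cell cannot be told apart. Here and below, a gene passed at a Benjamini-Hochberg adjusted p under 0.05 in limma, over all genes tested.

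MYC was not among them. Its scaled value was 236 and 219 in parental cells and 208, 212 and 213 in knockout cells with empty vector. Both parental values lay above the 3 knockout values, but the difference did not pass (log2 fold change 0.11, SE 0.05, adjusted p = 0.209). MYC was 227, 231 and 233 with wild-type KDM5A and 204 and 213 with mutant KDM5A, so 1 parental value lay within the range of the 8 knockout libraries and the other just above it.

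Among the 6 genes of RNA polymerase I transcription, 1 was lower in parental cells and none was higher (median -0.14). TCOF1, whose product treacle assists transcription of ribosomal DNA, stood at 44.3 and 42.3 in parental cells and at 56.2, 59.5 and 55.8 in knockout cells with empty vector. All knockout libraries, those with a KDM5A plasmid included (61.2, 64.9 and 65.2 with wild-type and 60.1 and 64.4 with mutant), lay above both parental ones. The parental mean was 0.758 times that of knockout cells with empty vector (log2 fold change -0.39, SE 0.06, adjusted p = 0.00619). UBTF, the upstream binding factor of the ribosomal DNA promoter, was 62.2 and 63.9 in parental and 65.6, 75.8 and 71.5 in knockout cells, without overlap, and did not pass (adjusted p = 0.219). POLR1B, the subunit next in size to the largest one, was 34.6 and 31.6 against 28.3, 32.9 and 32.0, so the groups overlapped. MYBBP1A, a nucleolar protein that binds MYB and acts on ribosomal RNA synthesis, was 69.1 and 75.9 against 81.4, 78.0 and 75.3, also with overlap.

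Of the 7 snoRNP and rRNA modification genes, 1 was lower and none was higher (median -0.15). NOLC1, a chaperone of snoRNPs, stood at 182 and 194 in parental cells and 246, 239 and 238 in knockout cells, and the libraries with KDM5A plasmids were higher still (255, 259.7 and 259.7, then 278 and 267). The 2 groups with empty vector did not overlap (log2 fold change -0.36, SE 0.05, adjusted p = 0.00323). NOP2, an rRNA cytosine methyltransferase, was 84.9 and 88.9 against 104, 96.6 and 103, also without overlap, but missed the threshold (adjusted p = 0.0737). The C/D snoRNP core protein NOP56 was 339 and 360.4 in parental cells and 395, 374 and 382 in knockout cells with empty vector, without overlap. NOP58, of the same particle, was 133 and 157 against 171, 159.8 and 152, with overlap. Their differences of -0.13 and -0.15 on the log2 scale did not pass, and neither did that of FBL, the methyltransferase of the particle (0.06). With wild-type KDM5A, NOP56 was 407, 415 and 375 and NOP58 172, 162 and 180.4.

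Of the 8 small-subunit factors 4 were lower in parental cells and none was higher, and all 8 lay below 0 (median -0.25). RRP12, an export and maturation factor of the small subunit, was 44.7 and 39.5 in parental cells and 56.7, 57.5 and 54.3 in knockout cells, with no overlap (log2 fold change -0.41, SE 0.07, adjusted p = 0.00779). BYSL, which acts in late small-subunit maturation, was 43.3 and 40.1 against 55.2, 51.0 and 53.1 (log2 fold change -0.34, SE 0.06, adjusted p = 0.0109). NOC4L, a small-subunit processome protein, was 31.6 and 30.1 against 39.1, 38.1 and 40.4 (log2 fold change -0.34, SE 0.06, adjusted p = 0.0118). With wild-type and mutant KDM5A, BYSL stood at 56.3, 59.1 and 56.0 and at 53.7 and 54.9. NOC4L stood at 37.4, 39.8 and 39.7 and at 37.1 and 38.9. In both genes the highest parental library stayed below the lowest of all 8 knockout libraries. UTP20, the member with the lowest level and a large scaffold of the processome, was 8.72 and 8.51 against 10.9, 11.2 and 12.3 (log2 fold change -0.37, SE 0.09, adjusted p = 0.0324), and the mutant libraries lay between these groups (9.56 and 9.92). The other 4, RRP9, UTP4, WDR43 and NOP14, ran from -0.16 to -0.03.

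Of the 14 large-subunit factors 7 were lower and none was higher (median -0.33). WDR74, a factor of early large-subunit particles, had the largest log2 difference of the members: 75.5 and 70.7 in parental cells, 106, 111 and 101 in knockout cells with empty vector. The parental mean was 0.688 times the empty-vector mean (log2 fold change -0.53, SE 0.07, adjusted p = 0.00246), and the values with wild-type (91.5, 87.1 and 90.3) and mutant KDM5A (88.1 and 98.0) lay between the 2 groups. NOC2L, which accompanies the particle out of the nucleolus, was 168 and 151 against 204, 215 and 206 (log2 fold change -0.39, SE 0.06, adjusted p = 0.00440).

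PES1, a subunit of the complex with BOP1 and WDR12 that matures the large subunit, was 93.5 and 93.2 in parental cells and 117, 120.0 and 122 in knockout cells (log2 fold change -0.35, SE 0.06, adjusted p = 0.00684). Its 2 partners did not pass: BOP1 differed by -0.16 and WDR12 by -0.33 on the log2 scale, and WDR12 spread widely within the groups, with 83.9, 52.5 and 55.8 under wild-type KDM5A. PPAN, an early large-subunit factor, was 59.2 and 59.3 against 78.4, 78.4 and 77.0 (log2 fold change -0.39, SE 0.07, adjusted p = 0.00912). MRTO4, which resembles the stalk protein P0 and holds its place on the young particle, was 53.5 and 63.5 against 75.4, 78.4 and 77.8 (log2 fold change -0.40, SE 0.07, adjusted p = 0.0124). RRS1 and NIP7 also passed, at -0.36 and -0.32. GNL3 (nucleostemin), NOP16, NOC3L, RRP1B and GRWD1 did not, and ran from -0.27 to 0.06.

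Of the 4 abundant nucleolar proteins 1 was lower and none was higher. DDX21, an RNA helicase of the nucleolus, was 109.5 and 115 in parental and 138, 134 and 132 in knockout cells (log2 fold change -0.26, SE 0.06, adjusted p = 0.0365). The histone chaperone NPM1 (1096 and 1221 against 1099.7, 1037 and 1044) and LYAR, a zinc finger nucleolar protein (55.3 and 64.8 against 63.7, 57.7 and 58.3), overlapped between the groups. NCL, nucleolin, stood at 512 and 572 against 572, 580.0 and 583, and 1 parental library lay within the knockout range. None of the 3 genes outside the nucleolus passed: PPRC1, a transcriptional coactivator (61.4 and 59.9 against 67.7, 67.6 and 67.0), ODC1, the first enzyme of polyamine synthesis (266 and 284 against 305, 276 and 283), and CAD, the enzyme that starts pyrimidine synthesis (46.4 and 44.8 against 45.7, 50.9 and 50.4).

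**Figure D3:**
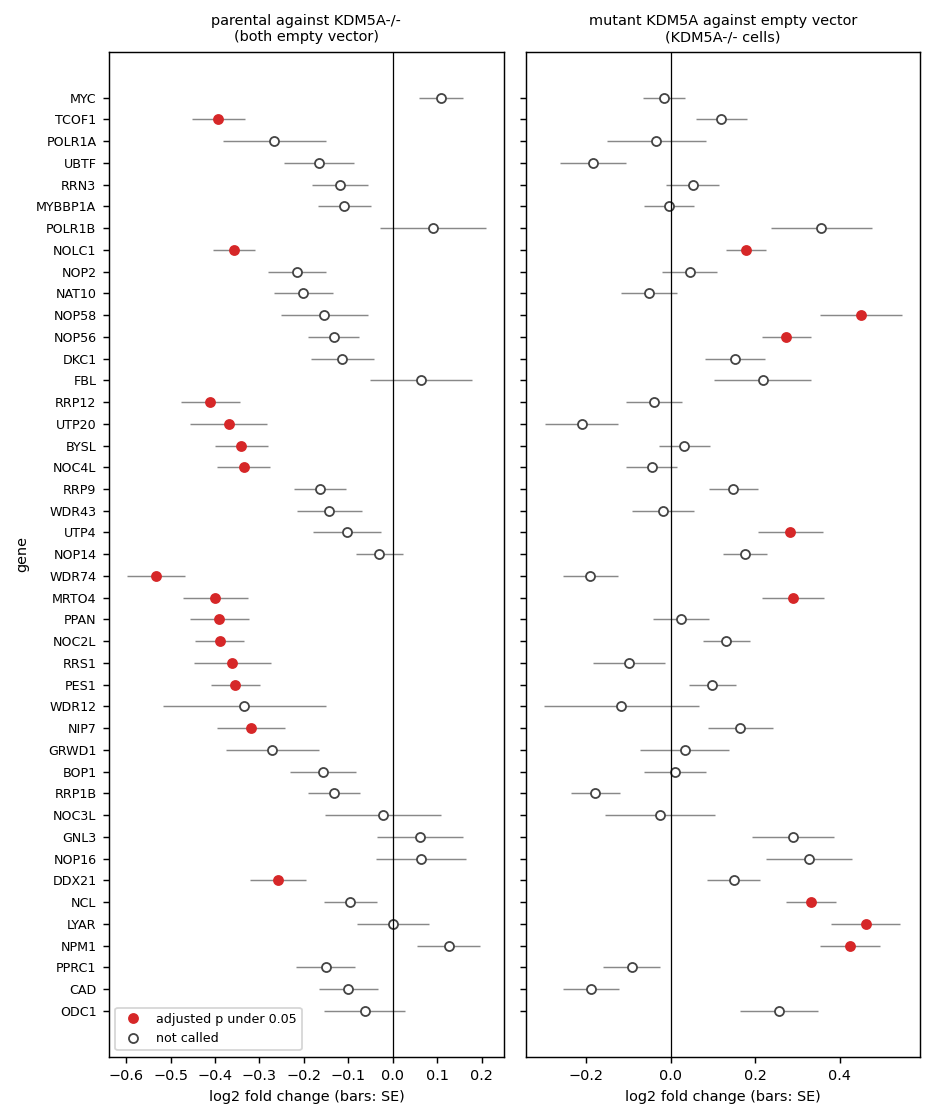
Log2 fold change with its standard error for each of the 43 members, parental against knockout cells (left) and mutant KDM5A against empty vector (right), filled where the adjusted p was under 0.05. On the left the 14 filled points lie between -0.53 and -0.26, most of them subunit assembly factors, and on the right the 8 filled points lie between 0.18 and 0.46 with median-ratio scaling, of which none passes as higher with the values as deposited and 3 (LYAR, NOP58 and NPM1) keep their direction there.

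The parental cells were also set against the knockout libraries with a KDM5A plasmid, as a description. Both parental libraries lay below all 8 knockout libraries in 21 members, against 9.93% of all genes tested and 13.6% of those as high as the lowest member, and in no member did both lie above. All 14 genes that passed were among the 21. With wild-type KDM5A the 14 genes differed from empty vector by -0.24 to 0.15 (median 0.04), and with mutant KDM5A by -0.21 to 0.29 (median 0.07); these comparisons share the empty-vector libraries with the first. The members' median minus that of all genes, in log2 units from the mean of the groups, was -0.15 ± 0.03 (SD, n = 2) in parental cells and 0.02 ± 0.03 (SD, n = 3) in knockout cells given empty vector. It was 0.05 ± 0.01 (SD, n = 3) under wild-type and 0.11 ± 0.04 (SD, n = 2) under mutant KDM5A.

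Parental library 2 had the low protein-coding share and parental library 1 (92.8%) did not. Without library 2 the count fell from 14 to 8, all of them among the 14, with no member higher, and without library 1 it was 11 lower, 10 of them among the 14, with NOP16 higher. WDR74, NOC2L, NOLC1, PES1, PPAN, RRP12, TCOF1 and MRTO4 passed whichever library was left out. BYSL and NOC4L did not pass without parental library 2. NIP7, RRS1, UTP20 and DDX21 were lost without parental library 1, without parental library 2 and in 5 or 6 of the other 8 fits, with differences of -0.39 to -0.27, -0.40 to -0.30, -0.40 to -0.32 and -0.30 to -0.22 over the 10 fits. A fit of only the 5 libraries compared called 5 members, and one with the protein-coding share as a covariate 7, all lower. Of all 17779 genes tested, these fits called 240 and 366 as lower. Of the 73 ribosomal protein genes tested, none passed in this comparison and 71 lay above 0 (64 as deposited, 48 with quantile normalization), while 5 were called higher as deposited and 1 with quantile normalization. The loci of 7 of the 14 overlap another protein-coding gene (MRTO4, NIP7, NOC2L, PES1, PPAN, RRS1 and WDR74), and the strand setting of the counting is not given in the sources used here, so their reads are less certain. These 7 are all of the large-subunit factors that passed. PPAN shares its locus with the read-through gene PPAN-P2RY11, whose values were 0.51 to 5.61.

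**Figure D4:**
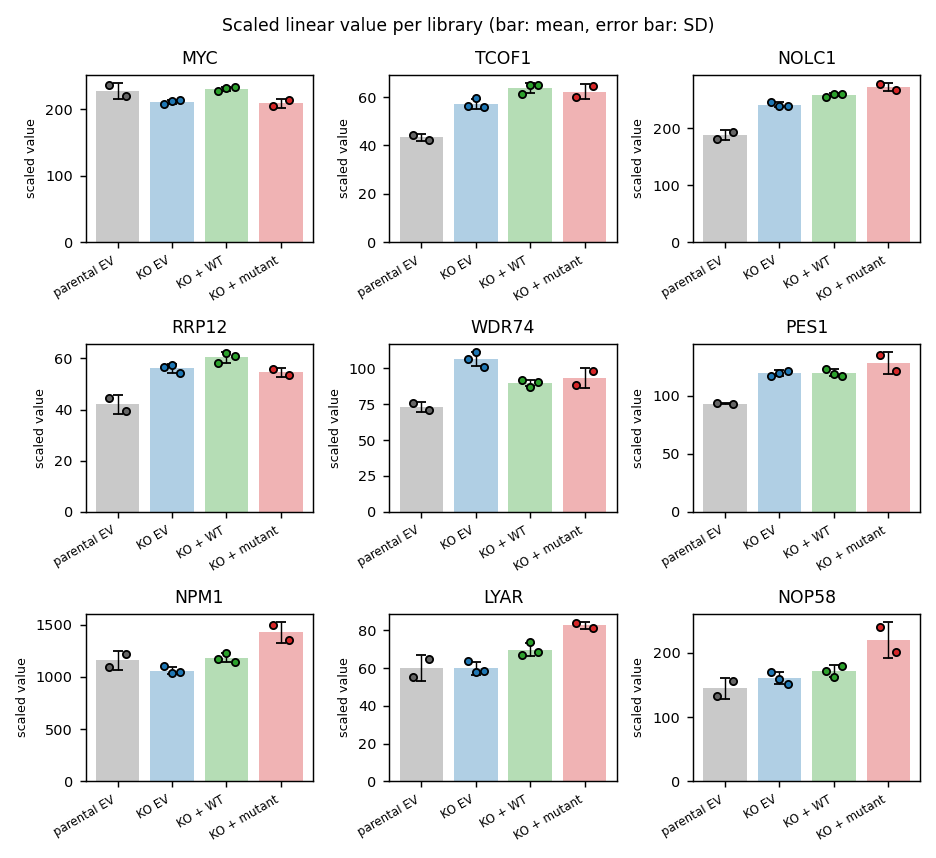
Scaled value in every library (points), with the group mean (bar) and SD (error bar), for MYC and 8 members with calls, on axes that start at 0. In TCOF1, NOLC1, RRP12, WDR74 and PES1 both parental points lie below all knockout points, in NPM1, LYAR and NOP58 both mutant points lie above those with empty vector, and MYC stays between 204 and 236 throughout. The direction of NPM1 turns with quantile normalization.

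Mutant KDM5A against empty vector, within the knockout cells, asks what the mutant plasmid changes within 24 hours. With median-ratio scaling, 8 members were higher and none was lower, whereas with the values as deposited none was higher and 22 were lower, and with quantile normalization 1 was higher (LYAR) and 2 were lower (MYC and WDR74). As deposited, 34.6% of all genes were lower and 2.57% higher, and the 22 are 51.2% of the members. With quantile normalization 4.99% of all genes were higher and 6.88% lower. With median-ratio scaling the 8 are 18.6% of the members, against 9.48% higher among all genes tested and 14.9% among those as high as the lowest member. They were LYAR, NOP58, NPM1, NCL, MRTO4, UTP4, NOP56 and NOLC1, abundant nucleolar and snoRNP proteins for the most part. The median over the members was 0.05, against -0.01 over all genes, and 27 members lay above 0, against 48.9% of all genes. The groups did not overlap in 18 members that were higher and 5 that were lower, against 23.3% and 23.6% of all genes. As deposited, the median of all genes tested shifted by -0.30 and that of the members by -0.28.

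NPM1 stood at 1498 and 1351 with mutant KDM5A and at 1099.7, 1037 and 1044 with empty vector. The groups did not overlap, and the wild-type values (1174, 1229 and 1146) lay between them (log2 fold change 0.42, SE 0.07, adjusted p = 0.00769). Its direction turned with quantile normalization (log2 fold change -0.16). NCL was 755 and 703 against 572, 580.0 and 583, a rise of 26% (log2 fold change 0.33, SE 0.06, adjusted p = 0.00937), whose direction turned as deposited (-0.01) and with quantile normalization (-0.13). LYAR was 84.1 and 81.4 against 63.7, 57.7 and 58.3 (log2 fold change 0.46, SE 0.08, adjusted p = 0.00877), with 67.1, 73.9 and 68.4 under wild-type KDM5A. LYAR kept its direction in both other scalings and passed with quantile normalization (0.38), while as deposited it differed by 0.12 and did not pass. DDX21 was 159.6 and 140.0 against 138, 134 and 132, without overlap, and did not pass (adjusted p = 0.138).

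Among snoRNP genes, 3 of 7 were higher. NOP58 was 241 and 201 with mutant KDM5A and 171, 159.8 and 152 with empty vector, with the 2 mutant libraries well apart from each other and above the others (log2 fold change 0.45, SE 0.10, adjusted p = 0.0171). It kept its direction in both other scalings (0.11 as deposited and 0.22 with quantile normalization) without passing. NOP56 was 465 and 463 against 395, 374 and 382 (log2 fold change 0.27, SE 0.06, adjusted p = 0.0159), and NOLC1 278 and 267 against 246, 239 and 238 (log2 fold change 0.18, SE 0.05, adjusted p = 0.0351), and both turned direction as deposited (-0.07 and -0.16) and with quantile normalization (-0.11 and -0.07). As deposited NOLC1 passed as lower in limma (adjusted p = 0.0314), so the direction of its call depends on the scaling. NOP2 was 106 and 102 against 104, 96.6 and 103 and overlapped. FBL differed within the mutant group (525 and 402), and its difference of 0.22 did not pass.

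In the subunit factors, MRTO4 and UTP4 were the 2 that passed. MRTO4 was 97.6 and 91.4 with mutant KDM5A and 75.4, 78.4 and 77.8 with empty vector (log2 fold change 0.29, SE 0.07, adjusted p = 0.0290), and UTP4, a small-subunit processome protein, was 98.1 and 92.6 against 74.9, 81.1 and 78.6 (log2 fold change 0.28, SE 0.08, adjusted p = 0.0371). Neither pair of groups overlapped, and both genes turned direction as deposited (-0.05 each). With median-ratio scaling, MRTO4 and NOLC1 were the members called both here and, in the other direction, in parental cells. As deposited NOLC1 was called lower in both comparisons. The 2 comparisons share the empty-vector libraries. The UTP4 locus reaches into SNTB2 and CHTF8, and MRTO4 overlaps EMC1.

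MYC did not pass with mutant KDM5A (204 and 213 against 208, 212 and 213, log2 fold change -0.02, SE 0.05, adjusted p = 0.860), but it passed as lower as deposited (-0.36) and with quantile normalization (-0.26). Of the RNA polymerase I genes none passed, and POLR1B came nearest with 45.1 and 35.3 against 28.3, 32.9 and 32.0 (adjusted p = 0.0722), 1 mutant library being well above the other. UBTF was lower without overlap (60.8 and 63.8, log2 fold change -0.18) and did not pass (adjusted p = 0.141). TCOF1 was 60.1 and 64.4, above its empty-vector values, and did not pass either (adjusted p = 0.206). ODC1 was 386 and 306 against 305, 276 and 283 (adjusted p = 0.0886) and CAD 42.4 and 43.3 against 45.7, 50.9 and 50.4 (adjusted p = 0.0856); both pairs of groups were apart, in opposite directions.

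Several measured facts move with this comparison. Of the ribosomal protein genes 64 of 73 were higher (47 as deposited, 5 higher and 1 lower with quantile normalization), and both mutant libraries had the low protein-coding share. With this share as a covariate no member passed in limma, 0.484% of all genes were higher, and the members' median minus that of all genes was 0.089, against 0.059 without the covariate. The count depended on single libraries: it was 2 (LYAR and NPM1) without mutant library 1, 3 without empty-vector library 2 or 3, 5 without library 1 of empty vector or of wild-type KDM5A, 11 without mutant library 2 (10 higher, WDR74 lower) and 12 without either parental library (11 higher, RRP1B lower). LYAR and NPM1 passed whichever library was left out. Longer genes had lower differences, with a Spearman correlation of -0.34 over the 43 members and -0.30 over 9497 genes of like level, given as a description since genes of one fit share their libraries. With the trend on exonic length removed, 8 members passed again, with TCOF1 (0.23) in place of NOLC1. NPM1 has 45 named pseudogenes in the tables, which summed to 125 to 197 per library, so reads of near-identical copies may be split among them.

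Wild-type KDM5A against empty vector gave no call among the members. None of the 43 passed, against 4.54% of all genes tested in either direction. The differences ran from -0.24 to 0.22 (median 0.05, against 0.00 over all genes), and 27 were above 0, against 50.1% of all genes. Groups did not overlap in 17 members that were higher and 4 that were lower, against 16.4% and 16.2% of all genes.

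WDR74 came nearest to the threshold: it was 91.5, 87.1 and 90.3 with wild-type KDM5A, below all 3 empty-vector values of 106, 111 and 101 (log2 fold change -0.24, SE 0.06, adjusted p = 0.0549). LYAR had the largest positive difference, 67.1, 73.9 and 68.4 against 63.7, 57.7 and 58.3, again without overlap (log2 fold change 0.22, SE 0.07, adjusted p = 0.130). MYC was 227, 231 and 233 against 208, 212 and 213 (log2 fold change 0.13, SE 0.04, adjusted p = 0.152), with 3 narrow values on each side. ODC1 was 323, 328 and 336 against 305, 276 and 283 and UTP4 91.2, 89.8 and 88.7 against 74.9, 81.1 and 78.6, each without overlap and above the threshold (adjusted p = 0.223 and 0.144). PPAN was lower, at 62.3, 68.1 and 72.3 against 78.4, 78.4 and 77.0 (adjusted p = 0.0866). A fit of only the 6 libraries compared called 4 members, MYC, ODC1 and UTP4 as higher and WDR74 as lower, with the same differences and smaller standard errors. Of all 17779 genes, 958 were called higher and 731 lower in it, so the members lay near the share over all genes. Leaving out the 3 libraries that stand apart gives nearly that same fit, since the 1 parental library left adds nothing to the spread. It is therefore no second check. Leaving out either parental library kept the differences of UTP4 and WDR74 with smaller standard errors. Leaving out either mutant library did so for WDR74. Each such pair is nearly 1 fit, since the library left alone in its group adds nothing to the spread. As deposited, the 43 had a median of -0.06, the median of all genes was -0.10, 1 member passed (PPAN, lower, -0.32) against 3.44% of all genes lower, and the number of all genes called went from 448 above and 359 below empty vector to 123 and 613.

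Mutant against wild-type KDM5A separated no member: 0 of 43 passed, against 0.0562% of all genes tested. Above 0 lay 27 members, against 49.7% of all genes. The smallest adjusted p was that of MRTO4, at 97.6 and 91.4 with mutant and 76.4, 77.1 and 74.6 with wild-type KDM5A (log2 fold change 0.31, SE 0.07, adjusted p = 0.0943). NPM1 (1498 and 1351 against 1174, 1229 and 1146, log2 fold change 0.27, SE 0.07, adjusted p = 0.104) and NCL (755 and 703 against 629.7, 613 and 625, log2 fold change 0.23, SE 0.06, adjusted p = 0.102) did not overlap between the groups either. With either parental library left out, these 3 genes and NOP16 kept their differences with smaller standard errors. Both are nearly 1 fit, since the parental library left adds nothing to the spread. MYC lay on the other side, at 204 and 213 against 227, 231 and 233 (log2 fold change -0.14, SE 0.05, adjusted p = 0.166). As deposited 4 members were lower (MYBBP1A, MYC, RRP12 and RRP1B), which is 9.3%, against 7.77% of all genes, with the median of all genes shifted by -0.20. A difference that misses the threshold with 2 against 3 libraries does not show that both plasmids act alike.

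**Figure D5:**
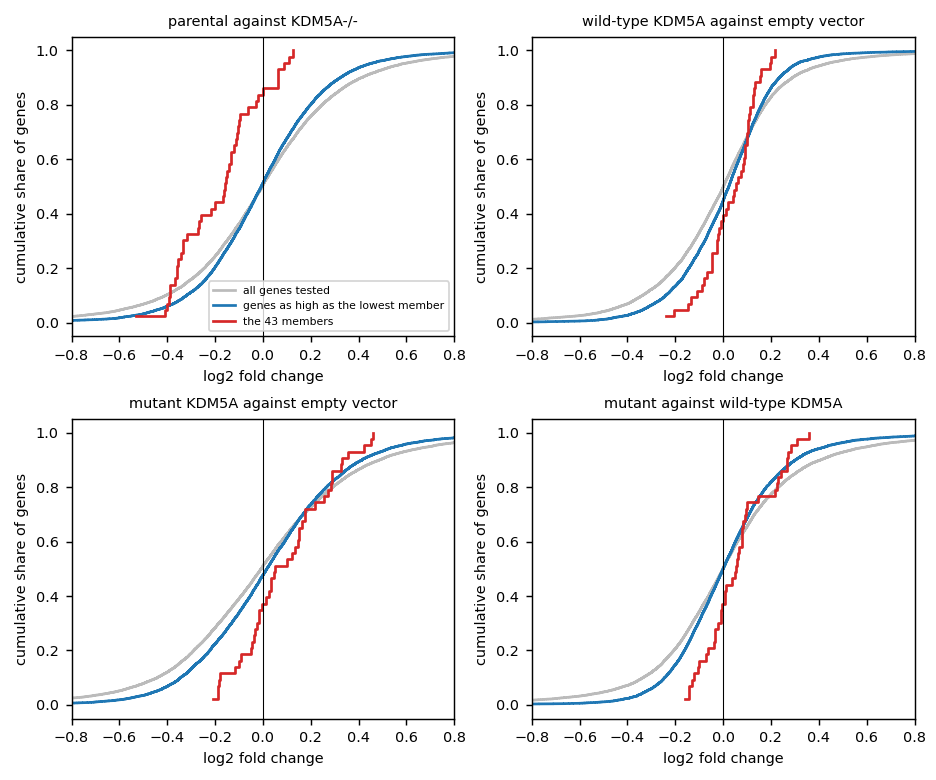
Cumulative share of genes against log2 fold change in the 4 comparisons, for all 17779 genes tested (grey), the 9571 at least as high as the lowest member (blue) and the 43 members (red), with median-ratio scaling. In parental against knockout cells the red line lies to the left of the others over most of its range (median -0.16), and in the other 3 comparisons its median is 0.05. As deposited the medians of the members and of all genes are below 0 in all 4 comparisons. The members' median is the lower one only in parental against knockout cells there.

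Other genes of the same pathways gave the following counts. Among 124 further processing and snoRNP factors, 19 were lower and 2 higher in parental cells than in knockout cells. These are 15.3% and 1.61%, against 4.84% and 4.09% of all genes tested. Below 0 lay 95 of the 124, against 50.6% of all genes. The counts were 23 lower and 2 higher as deposited, and 22 and 3 with quantile normalization. The lower ones are 18.5% and 17.7%, against 5.46% and 5.12% of all genes. With median-ratio scaling most of the lower ones were small-subunit factors (15 lower and 1 higher of 53). Of 56 large-subunit factors 3 were lower and 1 higher, and of 15 snoRNP factors 1 was lower. These last 2 lists lie near the share over all genes, 4.84%, or 7.6% of those as high as the lowest member. EMG1, an rRNA pseudouridine methyltransferase of the small subunit, had a mean of 52.3 against 103 (log2 fold change -0.97, SE 0.08, adjusted p = 0.000487). KRR1, a processome protein, was at 64.7 against 103 (log2 fold change -0.66, SE 0.07, adjusted p = 0.00116), and DDX49, an RNA helicase, differed by -0.50 (adjusted p = 0.00237). DDX56, a helicase of the large-subunit pathway, differed by -0.39 (adjusted p = 0.00549) and RUVBL2, an ATPase of snoRNP assembly, by -0.31 (adjusted p = 0.00724). With mutant KDM5A 28 of the 124 were higher and 2 lower, but 1 was higher and 41 were lower as deposited, and 15 and 4 with quantile normalization. The 28 are 22.6% of the list (9.48% of all genes were higher), the 41 as deposited are 33.1% (34.6% of all genes were lower there), and the 15 with quantile normalization are 12.1% (4.99% of all genes were higher). With wild-type KDM5A 4 were higher and 3 lower (none and 6 as deposited), and between the plasmids none passed. The 4 and 3 are 3.23% and 2.42%, near the 2.52% and 2.02% of all genes. RIOK1, a kinase of small-subunit maturation (0.57, adjusted p = 0.00683), and GNL2, a nucleolar GTPase (0.34, adjusted p = 0.00833), were among those higher with the mutant. As deposited they differed by 0.24 and 0.0068 and did not pass. PNO1 (-0.0018), NSA2 (-0.017) and SNU13 (-0.093), also higher with median-ratio scaling, turned direction there. Of the 124, 24 lay above 0 and 100 below 0 as deposited.

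Of 17 further RNA polymerase I genes, POLR1F (-0.40, adjusted p = 0.0124) and POLR1G (-0.39, adjusted p = 0.0408), both subunits of the enzyme, were lower in parental cells and none was higher. Of all genes tested 4.84% were lower there. As deposited POLR1G missed the threshold (-0.47, adjusted p = 0.0569). With mutant KDM5A, POLR2F (0.31) and POLR2H (0.33), subunits shared with the other nuclear polymerases, were higher, and both turned direction as deposited (-0.033 and -0.0040). None of the 17 passed with wild-type KDM5A or between the plasmids.

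In the network around MYC, 22 of 23 listed genes were tested. MXD1, which pairs with MAX and represses MYC targets, stood at 7.22 and 6.83 in parental cells and 11.5, 10.5 and 11.4 in knockout cells with empty vector. It rose with either plasmid, to 18.5, 18.7 and 18.4 with wild-type and 17.8 and 18.4 with mutant KDM5A, so the 3 levels did not overlap. The log2 fold changes were -0.60 in parental cells (adjusted p = 0.00273), 0.69 with wild-type (adjusted p = 0.00176) and 0.65 with mutant KDM5A (adjusted p = 0.00216), and the 3 comparisons share the empty-vector libraries. MXD1 passed in all 3 under both other scalings. MXD4, a relative of MXD1, was the 1 network gene higher in parental cells (0.41, adjusted p = 0.0156). ZBTB17 (MIZ1), through which MYC represses genes, was lower with wild-type (-0.36, adjusted p = 0.0323) and with mutant KDM5A (-0.42, adjusted p = 0.0124). FBXW7, a ubiquitin ligase subunit that marks MYC for decay, was higher with wild-type KDM5A (0.44, adjusted p = 0.0305). As deposited, MXD4 (0.33, adjusted p = 0.0931) and FBXW7 (0.33, adjusted p = 0.0623) did not pass. Of the 22 network genes, wild-type KDM5A gave 3 higher and 1 lower, beside shares over all genes of 2.52% and 2.02%. Mutant KDM5A gave 4 higher and 5 lower, beside shares of 9.48% and 7.05%. As deposited the mutant counts were 1 and 10, beside 2.57% and 34.6%. Parental cells had 1 of each, beside 4.09% and 4.84%.

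Around the enzymes, 2 of 27 nucleotide synthesis genes were lower in parental cells, UMPS, which completes pyrimidine synthesis (-0.65, adjusted p = 0.0120), and GART of the purine route (-0.34, adjusted p = 0.0373). Of all genes 4.84% were lower there. With mutant KDM5A 8 of the 27 were higher and none lower, against 9.48% and 7.05% of all genes. As deposited none was higher and 6 were lower, which lies below the 34.6% of all genes lower there. IMPDH2 (0.32) turned direction as deposited (-0.023) and with quantile normalization (-0.066), while NME1 (0.46) did not (0.12 as deposited). With wild-type KDM5A 1 was higher, against 2.52% of all genes. It was NME2 (0.50), which did not pass as deposited (0.39, adjusted p = 0.0860). Of 14 polyamine genes tested, 2 were higher with wild-type KDM5A and 6 with mutant KDM5A (1 each as deposited, where 5 were lower with the mutant), and in parental cells 2 were higher and 1 lower. Of all genes, 2.52% were higher with wild-type and 9.48% with mutant KDM5A, and 34.6% were lower with the mutant as deposited. In parental cells 4.09% of all genes were higher and 4.84% lower. SRM, spermidine synthase, was at a mean of 163 with wild-type and 169.9 with mutant KDM5A against 124 with empty vector (log2 fold changes 0.39 and 0.45, adjusted p = 0.00622 and 0.00323). With the mutant it differed by 0.11 as deposited and did not pass (adjusted p = 0.127). OAZ1, the antizyme that restrains ODC1, was at 942 and 1142 against 769 (log2 fold changes 0.29 and 0.57). OAZ1 passed with neither plasmid under quantile normalization (0.11 and 0.035), and as deposited it passed with the mutant (0.23) and not with wild-type KDM5A (0.18, adjusted p = 0.0534).

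The 13 members with an E-box and the 22 without were also set side by side, as a description. In parental against knockout cells their median log2 fold changes were -0.16 with an E-box and -0.14 without. With mutant KDM5A against empty vector the medians were 0.05 with an E-box and 0.14 without, and with wild-type KDM5A 0.01 and 0.04. Among members with a promoter entry, 4 of 10 lower in parental cells and 2 of 6 higher with mutant KDM5A held one.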

How the data were processed

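RNA-seq of 10 sorted HCT116 libraries was deposited as 1 table each of 60141 loci with log2 FPKM values. The values show log2 of a value plus 1, with linear sums of 999975 to 1000008, so the authors' deposited FPKM had been rescaled. Build GRCh38 and the tools Cufflinks 2.2.1, STAR 2.7.1a, GATK 4.1.2 and Picard stand in the submitters' processing notes without order; annotation release and strand setting are not given in the sources used here. Depth is unknown and no counts were analysed.

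Values were made linear, summed per symbol and divided by a median-ratio factor over 13651 genes that reached 1 in all libraries. The 17779 genes that reached a scaled value of 1 in 2 or more libraries were tested. limma 3.58.1 in R 4.3.3 (lmFit, contrasts.fit, eBayes with trend) tested log2(scaled value + 1) two-sided over all 10 libraries and 4 groups, with p adjusted by Benjamini-Hochberg in each of 4 comparisons. Fold changes are on that log2 scale with pseudocount 1. The test was checked on simulated data. Loci were matched to GENCODE release 29 (93.4%). Files were read with Python 3.11.15, numpy 2.4.6 and pandas 2.3.3, and figures drawn with matplotlib 3.10.9.

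The members and lists were chosen with earlier results of these data known. Every member is accounted for by role, and library values of the groups compared are given for MYC and up to 4 members per role with the smallest p. From each related list up to 3 genes per comparison with the smallest p may be named. MRTO4, UTP4, WDR12 and FBL were chosen for library values after these were seen. As alternatives, the fit was repeated with quantile normalization, the deposited values, a pseudocount of 0.1, no filter, a mean of at least 5, only the libraries compared, a replicate block, a length trend removed, each library left out, the 3 libraries that stand apart left out, and, chosen after seeing the data, the protein-coding share as a covariate.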

Additional observations from a re-analysis of the deposited data

How the results depend on the processing

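In parental against knockout cells the called members were lower under each alternative, apart from NOP16, which was higher without parental library 1; 14 became 16 as deposited and with quantile normalization, 11 without a filter, 5 with only the libraries compared, 7 with the covariate and 8 to 14 with 1 library left out. No fold change of those 14 genes reversed in 19 refits, which gave 266 values over the genes. With mutant KDM5A, 8 became 22 as deposited, 3 with quantile normalization, 0 with the covariate and 2 to 12 with 1 library left out. With wild-type KDM5A, 0 became 1 as deposited, with quantile normalization, with a mean of at least 5 and with the length trend removed. It became 2 with the covariate and 4 with only the libraries compared, and leaving out the 3 libraries that stand apart gives nearly that last fit. It stayed 0 with 1 empty-vector or wild-type library left out. Between the plasmids 0 became 4 as deposited, all lower, and stayed 0 with 1 empty-vector or wild-type library left out.

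The members' median minus that of all genes went, for wild-type KDM5A, to -0.011 with quantile normalization and 0.024 to 0.079 with 1 library left out; for mutant KDM5A, to 0.018 as deposited, -0.039 with quantile normalization, 0.089 with the covariate and 0.055 to 0.12 with 1 library left out; between the plasmids, to 0.027 as deposited, -0.0040 with quantile normalization, 0.017 with the covariate and 0.015 to 0.11; and in parental cells it stayed at -0.18 to -0.15. With mutant KDM5A the fold change turned as deposited in MRTO4 (-0.049), NCL (-0.0083), NOLC1 (-0.16), NOP56 (-0.067) and UTP4 (-0.054), with quantile normalization in NCL (-0.13), NOLC1 (-0.072), NOP56 (-0.11) and NPM1 (-0.16), and for MYC with the covariate (0.070) and without mutant library 1 (-0.047 to 0.015 with 1 library left out). Between the plasmids it turned with quantile normalization in NCL (-0.083), NOP56 (-0.019) and NPM1 (-0.15), and as deposited in NOP56 (-0.0080). The causes were not tested.

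The labels do not say whether replicate numbers pair the libraries. Deviations of libraries with the same number correlated by -0.089 to 0.051 over 13 pairs, against -0.080 to 0.092 for different numbers. All these correlations were small. Deviations cancel within a group, so the values for the same and for different numbers depend on each other. They therefore cannot decide whether the libraries were paired. With the replicate block, 7 members passed in parental cells (all lower), 3 with mutant KDM5A (LYAR, NCL and NPM1), with a median minus that of all genes of 0.089, and none in the other comparisons.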
